A study of Mus musculus with 24 samples.

Results

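ABT263-treated ovaries were compared with control ovaries at 6 months of age across all genes, by choosing the 3 libraries labelled as ABT263-treated at 6 months and the 3 labelled as natural aging at 6 months, 6 of the 24 whole-ovary mRNA libraries of the study. All mice were C57BL/6J females. The treated mice were gavaged with ABT263 from the age of 3 months on, with a daily dose of 50 mg/kg on 7 days of each month and none on the next 21 days, until their ovaries were taken at 6 months. The controls carry a natural aging label while the study's methods describe a vehicle, and whether these mice received vehicle was not settled. Estrous stage is not given in the sources used here. Other groups appear only beside the values at 6 months, namely control mice of 3 and 9 months and ABT263-treated mice of 9 months. The latter were dosed over the same 3 months and then housed with a male for 3 months, as were the 9-month controls in the study's description.

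ABT263 (navitoclax) occupies the groove by which the survival proteins BCL-2, BCL-XL and BCL-W hold back pro-death members of the same family. Senescent cells have left the cell cycle, often express the cyclin-dependent kinase inhibitors encoded by Cdkn2a and Cdkn1a, and release cytokines, proteases and growth factors known together as the senescence-associated secretory phenotype (SASP). In the ovary, oocytes are held in meiotic arrest inside follicles, granulosa cells divide around them and make estrogen, theca cells make the androgen it is derived from, corpora lutea form after ovulation, and macrophages take up the remains of regressed follicles and corpora lutea.

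The libraries of the ABT263-treated mice held 16361877, 18600936 and 19279896 counts for replicates 1, 2 and 3, and the control libraries held 20231834, 19991606 and 19254606. Levels are given as CPM, counts scaled to a common library total with edgeR's TMM factors, so that 3 counts, the smallest number read here as expression, correspond to between 0.148 and 0.180 CPM on that scale in the 6 libraries. Mitochondrial transcripts took 2.33%, 2.51% and 2.86% of the counts in the treated libraries and 2.67%, 2.70% and 2.54% in the control libraries. Genes that define the ovary were detected in all 6 libraries. Foxl2, the transcription factor of granulosa cells, lay between 211 and 301 CPM, the oocyte growth factor Gdf9 between 53.5 and 92.7 CPM, and Star, which carries cholesterol into the mitochondrion for steroid synthesis, between 417 and 2486 CPM.

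The 3 control libraries stood at leading distances of 1.84 to 2.01 log2 units from each other, over the 500 genes that differed most in each pair. ABT263 replicate 1 stood at 1.89 from control replicate 1, which is within that range, and at 2.27 from ABT263 replicate 3. The distances from ABT263 replicate 3 to the controls were the longest between the groups, at 2.40, 2.45 and 2.48. Replicates 2 and 3 of the treated mice, at 1.72 from each other, were closer than either was to replicate 1.

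Single libraries stood apart in markers of other tissues and cells. The oviduct glycoprotein gene Ovgp1 was at 164 CPM in control replicate 3 and at 2.51 to 12.1 CPM in the other 5 ovaries, and Foxj1, a factor of ciliated cells, was at 7.94 CPM there and at 0 to 1.53 CPM elsewhere. The summed level of the 7 oviduct genes, led by Ovgp1, was 179 CPM in that library and 4.07 to 16.4 CPM in the others. The plasma cell gene Jchain was at 49.7 CPM in control replicate 2 and at 2.22 to 16.2 CPM in the others. The summed level of the 6 erythroid genes, which mark blood in the tissue and were led by the globin gene Hbb-bs, was 19.1 CPM in ABT263 replicate 1, 45.1 CPM in replicate 2 and 181 CPM in replicate 3, beside 63.6, 113 and 64.3 CPM in the controls. The part of these cells in the differences below was not tested. Without control replicate 3 the median of the oviduct list turned from -1.46 to 0.37, while the medians of the oocyte, lipid-laden macrophage and SASP lists described below were 0.50, -0.77 and -0.27, and without control replicate 2 they were 0.53, -0.80 and -0.32.

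Of the 54532 genes in the table, 17277 passed the filter on low counts and were tested. No gene reached an adjusted p under 0.05 with edgeR's quasi-likelihood test, 0 of 17277 (0%), and the smallest adjusted p was 0.0929. At an unadjusted p under 0.05, edgeR gave 920 genes higher after ABT263 (5.32% of those tested) and 983 lower (5.69%), together 11%. At an adjusted p under 0.10 there were 9 higher (0.0521%) and 33 lower genes (0.191%), together 0.243%, and all 42 were without overlap. DESeq2's Wald test, run as an alternative on the same 6 libraries, called 126 genes higher (0.746% of the 16880 genes to which it gave an adjusted p) and 239 lower (1.42%). Of these 365 genes (2.16%), 362 were tested by edgeR, each with an unadjusted p under 0.05. All 3 treated mice were above all 3 controls in 1291 genes (7.47%) and below them in 1373 (7.95%), together 15.4%, which is called no overlap below. The median log2 fold change over all genes was 0.0045, with 5% of genes below -0.58 and 5% above 0.61. Without ABT263 replicate 1, the library closest to the controls, edgeR called 210 genes at an adjusted p under 0.05, 99 higher and 111 lower, and leaving out any other mouse gave 0 to 3. Where the spread was estimated over more groups, fewer genes had an unadjusted p under 0.05 for the same contrast, with 3.31% higher and 3.39% lower among 18202 genes for the 12 libraries of both treatments at 6 and 9 months, and 1.96% higher and 1.99% lower among 19513 genes for all 24 libraries. Since no gene passed the main test on the 6 libraries, genes are given below by their values, by whether the groups overlapped, and by the edgeR and DESeq2 p-values. In RNA of a whole ovary, fewer cells of a type and less RNA per cell cannot be told apart.

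**Figure D1:**
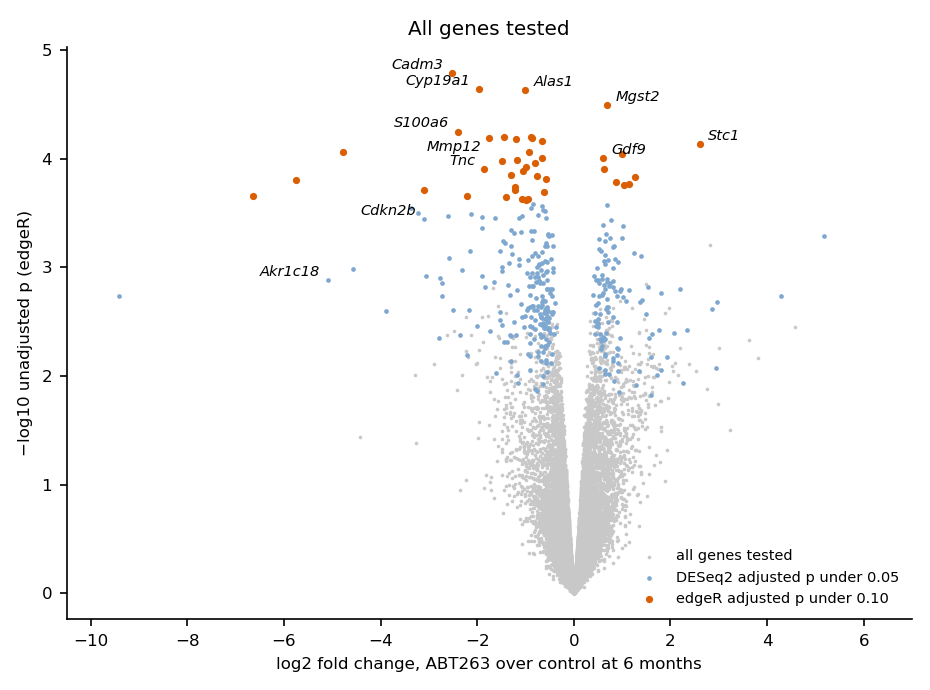
Log2 fold change of ABT263 over control at 6 months (horizontal) against −log10 of the unadjusted edgeR p (vertical) for the 17277 genes tested. The 42 genes with an edgeR adjusted p under 0.10 are orange, 9 to the right of 0 and 33 to the left, and genes with a DESeq2 adjusted p under 0.05 are blue.

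Of the genes expressed at a mean of at least 5 CPM without overlap, Cadm3, which encodes a cell adhesion molecule (chromosome 1 from 173333258 to 173367695, GRCm38), had the smallest p. It was at 2.45, 1.00 and 1.93 CPM in the treated ovaries and 10.1, 12.2 and 8.55 CPM in the controls, which is a log2 fold change of -2.53 (standard error 0.31, edgeR adjusted p = 0.0929). Alas1, which encodes the first enzyme of heme synthesis, was at 101, 121 and 95.6 CPM against 241, 181 and 213 CPM (-1.0, standard error 0.13). S100a6, which encodes a calcium-binding protein, was at 84.8, 31.2 and 39.2 CPM against 308, 312 and 198 CPM (-2.40). In each of these 3 genes, the highest treated ovary was below the lowest control by a wide margin. In the other direction, Stc1, the secreted glycoprotein stanniocalcin 1 (chromosome 14 from 69029238 to 69041804), was at 187, 515 and 444 CPM against 46.0, 90.6 and 50.5 CPM (2.61, standard error 0.38). Mgst2, a microsomal glutathione S-transferase, was at 81.9, 95.1 and 88.0 CPM against 54.2, 55.4 and 54.7 CPM (0.69, standard error 0.09). The controls of Mgst2 lay closer together than the treated mice.

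The 12 genes with the smallest p in each direction all had edgeR adjusted p-values of 0.0929 to 0.115, and all 24 had a DESeq2 adjusted p under 0.05. The 12 higher genes had log2 fold changes of 0.61 to 2.61. Among them were Agt, the precursor of angiotensin, Fmo2, a flavin monooxygenase, and Cdk5rap2, a centrosomal protein, as well as the oocyte genes Gdf9 and Padi6. The 12 lower genes ran from -0.65 to -2.53 and included the lipase inhibitor Angptl4 and the synaptic vesicle protein Syn1. Agt and Cdk5rap2 exceeded, and Angptl4 and Syn1 lay below, the levels in all 9 control ovaries of 3, 6 and 9 months. Agt was at 203, 214 and 226 CPM against 136, 114 and 151 CPM in the 6-month controls, with a highest control level of 198 CPM at 3 months.

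Senescence markers did not move together. Cdkn2a, from whose locus p16INK4a and p19ARF are made and whose counts cannot separate them, was expressed at a low level in both groups. It was at 0.299, 0.369 and 0.861 CPM in the treated ovaries and 2.61, 1.93 and 2.43 CPM in the controls, which is a log2 fold change of -2.16 (standard error 0.43, edgeR adjusted p = 0.131, DESeq2 adjusted p = 0.00551). Cdkn2b, which encodes the related inhibitor p15INK4b from the neighbouring gene on chromosome 4, was at 12.5, 4.0 and 2.84 CPM against 51.5, 85.5 and 25.6 CPM (-3.10, standard error 0.56, edgeR adjusted p = 0.105). For both genes, every treated ovary was below every control of 6 months, but the treated range overlapped with control ovaries of other ages. In these, Cdkn2a was at 0.533, 2.29 and 0.511 CPM at 3 months and 1.57, 0.773 and 0.480 CPM at 9 months. Cdkn2b was at 7.46, 31.2 and 6.48 CPM and 45.5, 15.5 and 5.81 CPM. Treated mice of 9 months had 0.588, 0.507 and 2.42 CPM of Cdkn2a and 7.59, 9.58 and 18.0 CPM of Cdkn2b. Both genes thus overlapped between the groups of that age. Cdkn1a, which encodes p21, was at 38.6, 13.6 and 9.42 CPM in the treated ovaries of 6 months against 32.7, 102 and 61.8 CPM. ABT263 replicate 1 thus lay above control replicate 1 (-1.69, edgeR adjusted p = 0.271). The list of markers also holds genes of proteins that are lost or relocated in senescent cells, so its median has no single reading. Of the 10 markers tested, 2 were lower and 1 was higher without overlap, beside 7.95% and 7.47% of all genes, and the median log2 fold change was 0.042. The higher one was Rb1, the retinoblastoma protein that p16INK4a keeps active, at 38.7, 39.1 and 47.1 CPM against 34.0, 30.5 and 34.0 CPM (0.34, standard error 0.12).

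The genes of nuclear proteins whose loss or relocation marks senescent cells overlapped between the groups. Lmnb1, the nuclear envelope protein lamin B1, was at 122, 118 and 74.1 CPM after ABT263 and 78.9, 83.1 and 96.9 CPM in the controls (0.27, standard error 0.18). Hmgb1, a chromatin protein that leaves the nucleus in senescent cells, was at 434, 417 and 370 CPM against 387, 410 and 433 CPM (-0.02, standard error 0.10). The log2 fold change of Hmgb1 was smaller than its standard error.

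Apart from Ccl8, the genes of the SASP list are ones the study named for ovaries of this experiment, so their direction is not independent evidence. Of 22 genes, 20 were tested, 17 had a negative log2 fold change, 9 were lower without overlap (7.95% of all genes) and 8 had an unadjusted edgeR p under 0.05 in that direction (5.69% of all genes). DESeq2 called 2 of them lower, Timp2 and Pdgfa, beside 1.42% of all genes. The median was -0.25, beside 0.0045 over all genes. When each mouse was omitted in turn, the median ranged from -0.32 to -0.24 and the number with an unadjusted p under 0.05 from 6 to 9. That number was 6 with 12 libraries in one fit (3.39% of all genes) and 2 with all 24 (1.99%).

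The chemokines of this list that attract monocytes were scarce. Ccl3 was at 0.479, 0.421 and 0.507 CPM in the treated ovaries and 1.68, 1.09 and 1.42 CPM in the controls (-1.56, standard error 0.37, edgeR adjusted p = 0.180). Ccl2 was at 1.38, 0.685 and 0.557 CPM against 2.51, 1.98 and 1.92 CPM (-1.31, standard error 0.39). Both were lower in all 3 treated mice, while Ccl8, another chemokine, was the single member that was higher in all 3 (0.76). Timp1, an inhibitor of matrix metalloproteinases, was at 85.1, 26.2 and 29.2 CPM against 95.2, 368 and 143 CPM, with the gap between the groups set by ABT263 replicate 1 and control replicate 1 (-2.12, standard error 0.56). Its relative Timp2 was at 327, 282 and 264 CPM against 371, 433 and 380 CPM (-0.45, DESeq2 adjusted p = 0.0155). The growth factor Pdgfa was at 26.0, 24.9 and 19.4 CPM against 33.5, 32.7 and 45.5 CPM (-0.68, DESeq2 adjusted p = 0.0140). Icam1, which binds leukocytes to vessel walls, and the tumor necrosis factor receptors Tnfrsf1a and Tnfrsf1b were also lower without overlap, by less (-0.37, -0.24 and -0.26).

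Some SASP cytokines and proteases were also measured by PCR in the study. Of these, Il6 and Mmp3 did not pass the filter on low counts. Cxcl10, a chemokine for T cells, was at 3.17, 2.21 and 2.08 CPM against 3.40, 3.87 and 3.59 CPM (-0.55, edgeR adjusted p = 0.477). The interleukins and Mmp9 overlapped. Il1a was at 0.299, 1.00 and 0.253 CPM against 0.986, 0.297 and 0.759 CPM (-0.39, standard error 0.64). Il1b was at 0.479, 0.158 and 2.63 CPM against 0.739, 1.88 and 0.354 CPM (0.16, standard error 0.88), with its highest level in ABT263 replicate 3. At under 3 CPM, changes of the size of these standard errors were not detectable.

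The genes of the drug's protein targets differed little. Bcl2 was at 20, 17.2 and 13.6 CPM in the treated ovaries and 18.8, 18.3 and 18.0 CPM in the controls (-0.12, standard error 0.15). Bcl2l1, which encodes BCL-XL, was at 62.4, 78.3 and 57.3 CPM against 59.7, 81.6 and 73.0 CPM (-0.12, standard error 0.15), and Bcl2l2, which encodes BCL-W, had a log2 fold change of -0.01 (standard error 0.10). The groups overlapped in all 3. Mcl1, a survival protein that ABT263 binds weakly, was lower in all 3 treated mice by a small amount, at 213, 228 and 203 CPM against 232, 236 and 238 CPM (-0.14, standard error 0.09). Bcl2l10, a survival gene expressed in oocytes, was at 22.8, 27.2 and 19.4 CPM against 19.9, 15.8 and 14.1 CPM, with ABT263 replicate 3 just below control replicate 1 (0.47, standard error 0.17). Of the pro-death members, 8 of 10 had a negative log2 fold change and 1, Bbc3, was lower without overlap, with a median of -0.23. A share of 1 in 10 is near the 7.95% of all genes. An unadjusted edgeR p under 0.05 was found for 2 of the 10, both lower (5.69% of all genes). It was found for 0 with all 24 libraries in one fit (1.99%). The 2 genes were Bax (-0.27) and Bcl2l11. Bcl2l11 (BIM) was at 50.5, 41.1 and 33.0 CPM against 55.5, 46.6 and 57.9 CPM (-0.37). The near-identical Bcl2a1 copies share reads and their values are uncertain.

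Oocyte genes were higher after ABT263. All 22 genes of the oocyte list had a positive log2 fold change, 21 were higher without overlap (7.47% of all genes), 18 had an unadjusted edgeR p under 0.05 (5.32% of all genes) and 12 were called higher by DESeq2 (0.746% of all genes). The median log2 fold change was 0.53, and it stayed between 0.49 and 0.58 with each mouse left out in turn, with 16 to 19 genes at an unadjusted p under 0.05. The median was also 0.53 with 12 libraries in one fit and 0.54 with all 24, but the number of genes with an unadjusted p under 0.05 fell to 4 with 12 libraries (3.31% of all genes) and to 0 with 24 (1.96%). The summed level of the list was 777, 811 and 705 CPM in the treated ovaries and 563, 499 and 510 CPM in the controls. The members share one cell type, so that they are not 22 independent observations.

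Gdf9, a growth factor through which the oocyte drives its granulosa cells, was at 84.4, 92.7 and 77.2 CPM after ABT263 and 55.6, 57.0 and 53.5 CPM in the controls (0.61, standard error 0.09, edgeR adjusted p = 0.0929). Padi6, a component of the oocyte's cytoplasmic lattices and the most abundant gene of the list, was at 115, 113 and 94.4 CPM against 73.5, 66.0 and 69.1 CPM (0.63). Bmp15, the partner of Gdf9, was at 35.2, 35.7 and 31.4 CPM against 26.5, 21.6 and 22.7 CPM (0.53, standard error 0.12). In each gene the lowest treated ovary was ABT263 replicate 3, and it was still above every control. The genes of the zona pellucida, the coat of the egg, had similar differences, with log2 fold changes of 0.57 for Zp1, 0.48 for Zp2 and 0.51 for Zp3. Zp1 was at 26.6, 26.8 and 26.0 CPM against 17.4, 17 and 19.1 CPM. Kpna7, an importin of oocytes, had the largest difference of the list, at 11.3, 12.7 and 9.58 CPM against 6.90, 6.00 and 4.86 CPM (0.92, standard error 0.19). Npm2, a histone chaperone of the egg, had a log2 fold change of 0.63. Members of the Nlrp, Oog and Rfpl4 families have near copies in the genome and are uncertain.

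Genes that also mark oocytes of primordial and early growing follicles had a median of 0.47, with 10 of 10 positive, 4 higher without overlap (7.47% of all genes), 5 at an unadjusted edgeR p under 0.05 (5.32%) and 0 called by DESeq2 (0.746%). The number at an unadjusted p under 0.05 was 3 to 5 with each mouse left out, 1 with 12 libraries in one fit and 0 with all 24. Nobox, a transcription factor of early follicles, was at 13.2, 13 and 11.5 CPM against 8.82, 7.19 and 9.05 CPM (0.58, standard error 0.16). Dazl, an RNA-binding protein of germ cells, was at 6.41, 5.79 and 6.54 CPM against 3.45, 3.62 and 4.2 CPM (0.73). The helicase Ddx4 and the RNA-binding protein Ybx2 were the other two without overlap (0.62 and 0.48). Foxo3, which restrains the activation of primordial follicles and is also made by other cells, overlapped (0.06). Of 12 genes of meiosis, 8 were positive, with a median of 0.25 that ran from 0.16 to 0.27 with each mouse left out. Of these 12, 6 were higher (7.47% of all genes) and 2 lower without overlap (7.95%). Rec8, a meiotic cohesin, went the other way, at 7.60, 9.48 and 9.73 CPM against 16, 13.8 and 14.3 CPM (-0.72, standard error 0.16, DESeq2 adjusted p = 0.0149).

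**Figure D2:**
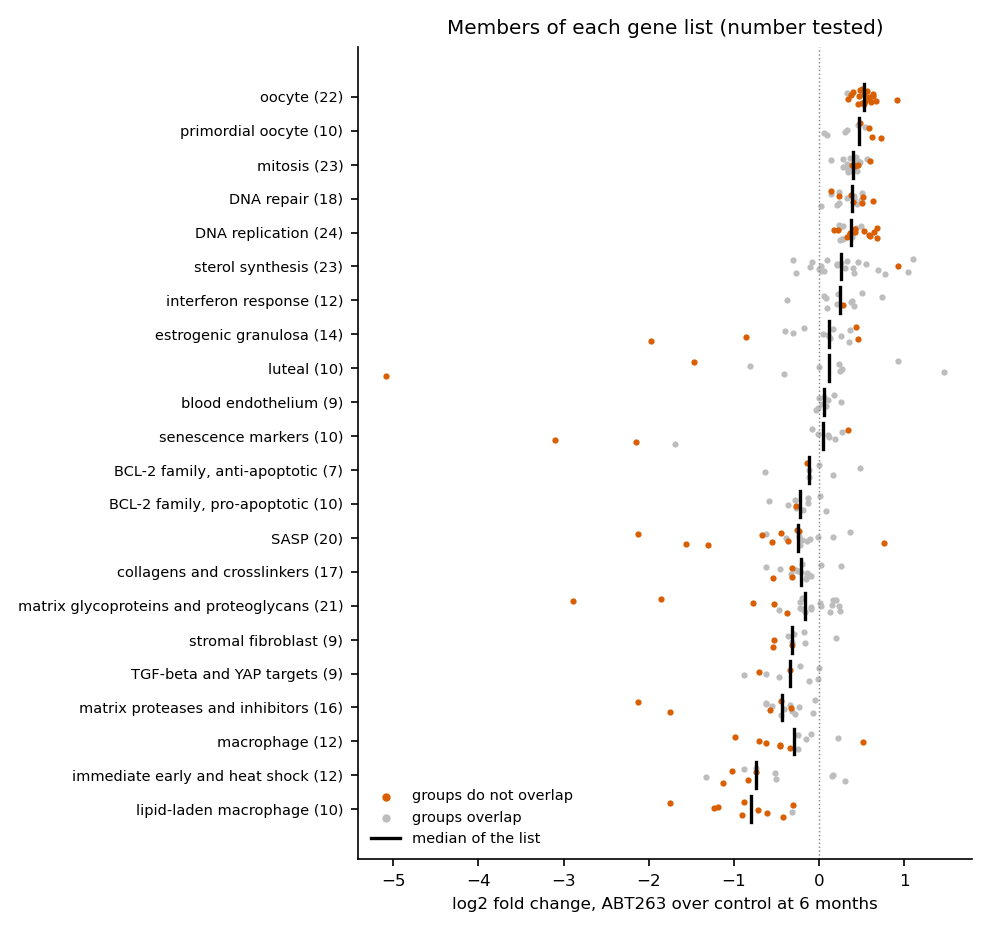
Log2 fold changes of ABT263 over control at 6 months (horizontal) for each tested member of 22 gene lists (rows, with the number tested). Orange points are genes whose groups did not overlap, grey points are genes whose groups overlapped, and the black line is the median of the list. The oocyte list sits to the right of 0 in all 22 genes and the lipid-laden macrophage list to the left in all 10.

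Genes of dividing cells were higher in ABT263 replicates 1 and 2, while replicate 3 lay among the controls. All 23 mitosis genes had a positive log2 fold change with a median of 0.40, and 13 had an unadjusted edgeR p under 0.05 (5.32% of all genes), but 4 were without overlap (7.47% of all genes). Top2a, which untangles chromosomes, was at 142, 146 and 101 CPM in the treated ovaries and 80.1, 81.3 and 102 CPM in the controls (0.56, standard error 0.15, edgeR adjusted p = 0.230). Mki67, the proliferation antigen Ki-67, was at 109, 113 and 81.5 CPM against 70.0, 65.2 and 84.5 CPM (0.46). In both genes ABT263 replicate 3 lay below control replicate 3. Mybl2, a transcription factor of cycling cells, was at 24.7, 29.8 and 21.5 CPM against 14.4, 17.2 and 18.4 CPM (0.60, standard error 0.16), and Cdk1, the mitotic kinase, at 49.3, 45.2 and 36.1 CPM against 28.9, 34.1 and 34.5 CPM (0.42). These were 2 of the 4 genes without overlap. The number with an unadjusted p under 0.05 depended on the mouse left out. It was 4 without ABT263 replicate 1 or 2, 5 without control replicate 1 or 2, 19 without ABT263 replicate 3 and 21 without control replicate 3. It was 5 with 12 libraries in one fit (3.31% of all genes) and 1 with all 24 (1.96%).

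DNA replication genes had the same direction, with 24 of 24 positive, 13 higher without overlap (7.47% of all genes), 12 at an unadjusted edgeR p under 0.05 (5.32%) and a median of 0.37. Mcm6, a subunit of the replicative helicase, was at 119, 125 and 99.2 CPM against 78.3, 84.5 and 75.5 CPM (0.52, standard error 0.10, DESeq2 adjusted p = 0.00441). Pole, the leading-strand polymerase, was at 28.9, 23.5 and 19.5 CPM against 13.2, 16.1 and 15.3 CPM (0.68). Cdc6, which loads the helicase, was at 13.9, 14.3 and 10.3 CPM against 7.99, 7.24 and 8.70 CPM (0.68). For these genes ABT263 replicate 3 was the lowest treated ovary and still above the controls. The number of replication genes with an unadjusted p under 0.05 was 6 without ABT263 replicate 2, 7 without control replicate 1 and 19 without ABT263 replicate 3. It was 12 with 12 libraries in one fit and 8 with all 24. All 18 DNA repair genes were positive as well, 7 of them without overlap (7.47% of all genes), with a median of 0.38. Of these 18 genes, 7 had an unadjusted edgeR p under 0.05, 2 to 9 with each mouse left out, fewest without ABT263 replicate 1, 4 with 12 libraries in one fit and 3 with all 24. The checkpoint kinase Chek1 was at 26.9, 27.2 and 21.9 CPM against 17.2, 12.7 and 19 CPM (0.63), and Brca2, which loads the recombinase on broken DNA, at 23, 24.9 and 23.7 CPM against 19.1, 17.9 and 17.3 CPM (0.40, standard error 0.11). Several genes of these lists are also expressed in oocytes, and the parts of the cell types were not tested.

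Promoters of these genes are shown because members of the mitosis and replication lists shared a direction. In cycling cells, genes of mitosis are bound through a cell cycle homology region (CHR) with nearby CCAAT boxes, and genes of replication through E2F sites. RefSeq promoters of GRCm38.p6 were searched on both strands for the letters TTTGAA for the CHR, CCAAT for the box of that name and GGCGGGAA for E2F. From 250 bases before the gene's start to 50 bases after it, the CHR letters were in 12 of the 18 mitosis promoters matched and in 20.2% of 27025 promoters, and the CCAAT letters in 15 of 18 and 41.1%. Of 19 replication promoters, 13 held CCAAT and 4 held the E2F letters, which 2.52% of all promoters held. The E2F letters were in 0 of the 18 mitosis promoters. Printed below are the 100 bases before the start of 6 genes, 5′ to 3′ on the gene's strand, with the matched letters of these motifs in capitals in either orientation. In Prim1, which encodes the replication primase, the E2F and CCAAT letters overlap. The windows are chr11:99024190-99024289 (minus strand) for Top2a, chr10:69352913-69353012 (minus) for Cdk1, chr19:37376282-37376381 (plus) for Kif11, the motor that pushes spindle poles apart, chr10:128015115-128015214 (plus) for Prim1, chr1:128359706-128359805 (minus) for Mcm6 and chr10:76531505-76531604 (plus) for Lss, a sterol enzyme described with its pathway.
Top2a: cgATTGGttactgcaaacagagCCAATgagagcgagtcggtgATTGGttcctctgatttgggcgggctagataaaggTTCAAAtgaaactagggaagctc
Cdk1: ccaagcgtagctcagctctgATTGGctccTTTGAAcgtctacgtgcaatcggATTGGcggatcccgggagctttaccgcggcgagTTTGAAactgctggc
Kif11: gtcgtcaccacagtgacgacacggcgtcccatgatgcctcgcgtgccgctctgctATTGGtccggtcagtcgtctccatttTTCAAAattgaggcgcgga
Prim1: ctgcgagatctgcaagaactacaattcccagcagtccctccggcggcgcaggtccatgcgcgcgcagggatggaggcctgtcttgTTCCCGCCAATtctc
Mcm6: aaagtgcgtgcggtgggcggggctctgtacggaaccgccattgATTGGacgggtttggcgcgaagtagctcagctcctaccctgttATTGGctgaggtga
Lss: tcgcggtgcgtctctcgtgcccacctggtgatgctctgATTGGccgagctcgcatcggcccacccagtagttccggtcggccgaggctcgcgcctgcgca

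In the printed Top2a, Cdk1 and Kif11 windows, CHR letters stand near the start with CCAAT letters upstream of them. The Cdk1 window holds a second CHR match, which lies further from the start, between its CCAAT matches. Restricting the search to 100 bases before the start and 50 after it left the CHR letters in 12 of 18 mitosis promoters and lowered the share of all promoters to 9.23%. A match of letters is a description of the window and not a site of binding. Kif11 itself was at 47.1, 41.4 and 32.2 CPM after ABT263 and 27.5, 27.0 and 32.4 CPM in the controls (0.47), and Prim1 at 22, 20.4 and 16.9 CPM against 12.2, 14.3 and 17.2 CPM (0.43). Both overlapped through replicate 3 of each group.

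Among granulosa genes, the direction differed from gene to gene. Cyp19a1, the aromatase that converts androgen into estrogen (chromosome 9 from 54165937 to 54268110), was at 13.7, 18.4 and 24.3 CPM in the treated ovaries and 51.5, 89.1 and 80.0 CPM in the controls, which is a log2 fold change of -1.97 (standard error 0.25, edgeR adjusted p = 0.0929, DESeq2 adjusted p = 3.46e-14). Fshr, the receptor for follicle-stimulating hormone, was at 23.2, 17.4 and 19.7 CPM against 33.1, 44.9 and 31.3 CPM (-0.86, standard error 0.17). All treated ovaries were below all 6-month controls in both. For Cyp19a1, the treated ovaries lay inside the range of control ovaries of other ages. These were at 16.6, 47.5 and 6.69 CPM at 3 months and 18.8, 245 and 78.7 CPM at 9 months. The part of estrous stage in these values was not tested. Esr2, the estrogen receptor of granulosa cells, was in contrast at 156, 137 and 153 CPM against 120, 115 and 90.2 CPM (0.45, standard error 0.12, DESeq2 adjusted p = 0.0381), and the nuclear receptor Nr5a2 at 479, 526 and 438 CPM against 327, 338 and 397 CPM (0.44, DESeq2 adjusted p = 0.0235). These were the 4 of 14 genes of the list without overlap, beside 15.4% of all genes in both directions. The median of the list was 0.12, and -0.06 without control replicate 1.

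Granulosa genes of small follicles overlapped in all 7 members tested, with a median of 0.13. With each mouse left out, the median ran from 0.017, without ABT263 replicate 2, to 0.19, without ABT263 replicate 3. Foxl2 was at 251, 301 and 235 CPM after ABT263 and 211, 230 and 276 CPM in the controls (0.13, standard error 0.13). Amh, the hormone of growing follicles, was at 304, 326 and 201 CPM against 168, 201 and 247 CPM (0.42, standard error 0.19, edgeR adjusted p = 0.472), with ABT263 replicate 3 inside the control range. In theca cells, Cyp17a1, which makes androgen, was at 134, 95.7 and 13.8 CPM against 390, 502 and 242 CPM (-2.23, standard error 0.63, edgeR adjusted p = 0.236). Its 3 treated values spread widely and stayed below every control. Hedgehog signals pass from granulosa to theca cells, and the ligand Dhh was at 24.8, 24.2 and 16.6 CPM against 13.4, 15.4 and 16.5 CPM (0.53), with ABT263 replicate 3 barely above control replicate 3. The receptor and target Ptch1 was at 192, 165 and 174 CPM against 141, 129 and 124 CPM (0.43, standard error 0.09, DESeq2 adjusted p = 0.0128). Cyp17a1, Dhh and Ptch1 were the theca and hedgehog genes without overlap, 1 lower (7.95% of all genes) and 2 higher (7.47%). Of the 10 genes of that list, 5 were positive and 5 negative, with a median of 0.017.

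Luteal genes varied widely between mice. Akr1c18, the enzyme that inactivates progesterone as corpora lutea regress, was at 49.8, 2.69 and 7.5 CPM after ABT263 and 606, 1284 and 115 CPM in the controls, which is a log2 fold change of -5.09 with a standard error of 1.12 (edgeR adjusted p = 0.153, DESeq2 adjusted p = 0.00879). Sfrp4, a secreted antagonist of Wnt signals in luteal cells, was at 977, 881 and 1098 CPM against 2057, 4249 and 1843 CPM (-1.47, standard error 0.29). These were the 2 of 10 luteal genes without overlap, both lower (7.95% of all genes). The remaining 8 luteal genes overlapped. The median of the list was 0.11, with 5 genes positive and 5 negative. Star was at 417, 1640 and 2486 CPM against 1214, 665 and 522 CPM (0.93, standard error 0.54), and Hsd17b7, an enzyme of both estrogen and cholesterol synthesis, at 208, 944 and 1625 CPM against 233, 439 and 334 CPM (1.47). For both, ABT263 replicate 1 was the lowest of the 6 mice and replicates 2 and 3 were above all controls. Ptgfr, the receptor for the prostaglandin that starts luteal regression, was at 186, 253 and 428 CPM against 529, 668 and 331 CPM (-0.81). Cyp11a1, the side-chain cleavage enzyme and the most abundant luteal gene, was at 4130, 4849 and 7192 CPM against 8004, 7464 and 6141 CPM (-0.42, standard error 0.20). With each mouse left out, the median of the luteal list lay between -0.25 and 0.30. The summed level of the list was 11821, 16369 and 22904 CPM in the treated ovaries and 19832, 21140 and 15885 CPM in the controls. The 9 tested genes of the ovulatory response had a median of -0.13, which ran from -0.18 to -0.077 with each mouse left out. Of these 9 genes, 6 were negative and 3 positive, and 2 were lower without overlap (7.95% of all genes). Cebpb, a transcription factor and the most abundant of them, overlapped (0.30, standard error 0.19). The lowest of the list was Edn2, an endothelin made around ovulation, at 0.898, 0.895 and 0.811 CPM against 1.28, 8.73 and 4.75 CPM (-2.50, standard error 0.61, DESeq2 adjusted p = 0.000971). These genes follow the estrous cycle, and the part of cycle stage in them was not tested.

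Sterol synthesis genes, which supply cholesterol for steroids, were split between the treated mice in the way of Star. Of 23 genes, 19 had a positive log2 fold change, 5 had an unadjusted edgeR p under 0.05 (5.32% of all genes) and 1 was higher without overlap (7.47% of all genes), with a median of 0.26. With each mouse left out the median ran from 0.13, without ABT263 replicate 2, to 0.50, without ABT263 replicate 1. The mean log2 level of the list relative to the controls was -0.20 in ABT263 replicate 1, 0.46 in replicate 2 and 0.52 in replicate 3. Without ABT263 replicate 1, the number with an unadjusted p under 0.05 was 14, and without ABT263 replicate 3 or control replicate 1 it was 1. With 12 or 24 libraries in one fit it was 0. Lss, which closes the sterol rings and was the member without overlap, was at 62.3, 125 and 138 CPM against 61.1, 48.7 and 61.7 CPM (0.92, standard error 0.26, DESeq2 adjusted p = 0.00547). Replicate 1 was just above the highest control. The CCAAT letters printed for Lss were in 15 of the 16 sterol promoters matched.

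**Figure D3:**
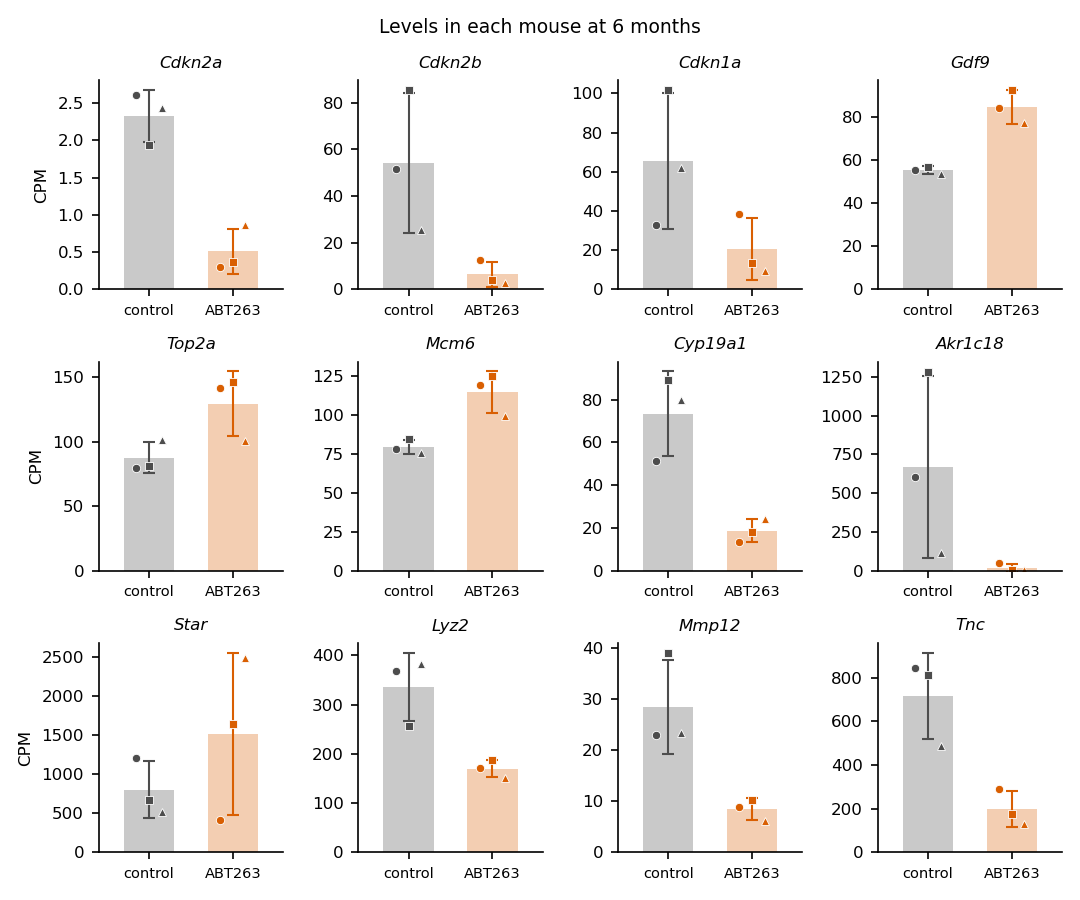
Levels in CPM (vertical) of 12 genes in the 3 control mice and the 3 ABT263-treated mice of 6 months. Each point is a mouse, with circle, square and triangle for replicates 1, 2 and 3, the bar is the mean of 3 mice and the error bar the SD. Cyp19a1, Lyz2, Mmp12 and Tnc had every treated ovary below every control, while Star and Cdkn1a overlapped.

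Genes of macrophages that hold lipid were lower after ABT263. All 10 genes of the lipid-laden list had a negative log2 fold change, 9 were lower without overlap (7.95% of all genes), 9 had an unadjusted edgeR p under 0.05 (5.69% of all genes), and 7 were called lower by DESeq2 (1.42% of all genes). The median was -0.80, and between -0.93 and -0.70 with each mouse left out. It was -0.79 with 12 or 24 libraries in one fit, but the number of genes with an unadjusted p under 0.05 fell from 9 to 6 with 12 libraries (3.39% of all genes) and to 3 with 24 (1.99%). The summed level was 310, 314 and 242 CPM in the treated ovaries and 460, 502 and 540 CPM in the controls. Mmp12, macrophage elastase, was at 8.98, 10.3 and 6.18 CPM against 22.9, 39.1 and 23.4 CPM (-1.75, standard error 0.25). Gpnmb, a glycoprotein of lysosomes and the most abundant gene of the list, was at 49.5, 62.6 and 31.3 CPM against 88.1, 118 and 129 CPM (-1.24, standard error 0.23, edgeR adjusted p = 0.121, DESeq2 adjusted p = 6.6e-06). The lipid receptor Trem2 was at 13.2, 15.9 and 8.97 CPM against 22.3, 19.4 and 28.1 CPM (-0.88, standard error 0.22). The galectin Lgals3 was at 43.2, 42.4 and 29.4 CPM against 87.5, 68.7 and 104 CPM. ABT263 replicate 3 had the lowest level in each of these 4 genes. Cathepsin K (Ctsk) and the fatty acid transporter Cd36, which is also found on other cells, had log2 fold changes of -0.72 and -0.61.

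Of 12 genes common to macrophages, 10 were negative, 6 of them without overlap (7.95% of all genes), with a median of -0.29. An unadjusted edgeR p under 0.05 was found for 6 of the negative genes (5.69% of all genes), and for 2 with all 24 libraries in one fit (1.99%). Lyz2, the lysozyme of macrophages and the most abundant of them, was at 171, 187 and 152 CPM against 369, 256 and 382 CPM (-0.99, standard error 0.15, edgeR adjusted p = 0.0929, DESeq2 adjusted p = 3.33e-07). Cd68, a protein of their lysosomes, was at 24.1, 28.7 and 21 CPM against 34.5, 39.1 and 46.5 CPM (-0.71). The complement gene C1qa was at 57.6, 62.8 and 66.1 CPM against 83.1, 68.7 and 83.6 CPM (-0.34), and its partners C1qb and C1qc both had a log2 fold change of -0.46. Surface genes that define macrophages, among them Adgre1, Csf1r and Mertk, overlapped. Cd163, a scavenger receptor of resident macrophages, was the one member higher in all 3 treated mice, at 6.47, 5.37 and 5.07 CPM against 4.39, 4.11 and 3.29 CPM (0.51, standard error 0.21).

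Among other leukocytes the lists differed. Of the 6 monocyte and neutrophil genes and the 7 B and plasma cell genes tested, 0 were without overlap. Of 7 T and NK cell genes, Cd3d of the T cell receptor complex and Klrb1c of NK cells were lower without overlap (-0.54 and -1.14), beside 7.95% of all genes. Both were scarce, between 0.527 and 0.860 CPM for Cd3d and between 0.405 and 1.21 CPM for Klrb1c. Of 4 mast cell genes tested, the 3 secreted proteases were lower without overlap (7.95% of all genes) and 2 were called lower by DESeq2 (1.42%), with a list median of -1.84. Tpsb2 was at 0.718, 1.16 and 0.659 CPM against 2.42, 3.67 and 4.96 CPM (-2.12, standard error 0.38, DESeq2 adjusted p = 0.000512). The other two were Cma1 and Cpa3 (-2.36 and -1.57), at low levels. Mcpt4 and Ms4a2 of the same list did not pass the filter, and Kit, which oocytes and theca cells also express, was at 80.9, 75.8 and 80.2 CPM against 59.6, 76.2 and 56.2 CPM. Interferon response genes were positive in 11 of 12, with 1 higher without overlap, a share near the 7.47% of all genes. Their median was 0.25, and it ran from 0.12, without ABT263 replicate 3, to 0.41, without ABT263 replicate 1, which was again below the other treated mice in their mean level.

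Most genes of the extracellular matrix and of its turnover had negative log2 fold changes, and a minority did not overlap. All 16 tested proteases and protease inhibitors were negative, 5 of them without overlap (7.95% of all genes) and 7 at an unadjusted edgeR p under 0.05 (5.69%), with a median of -0.43. With all 24 libraries in one fit the 7 fell to 3. Besides Timp1 and Mmp12, the membrane-bound collagenase Mmp14 was at 265, 209 and 164 CPM against 290, 296 and 359 CPM (-0.57, standard error 0.17, DESeq2 adjusted p = 0.0272), and the gelatinase Mmp2 at 138, 148 and 124 CPM against 191, 149 and 175 CPM (-0.33). For Mmp2 the highest treated ovary was just below the lowest control. Collagens and their crosslinking enzymes were negative in 15 of 17, 3 of them without overlap (7.95% of all genes), with a median of -0.22. An unadjusted edgeR p under 0.05 was found for 5 of them (5.69% of all genes), for 1 to 7 when a mouse was left out, with 1 without ABT263 replicate 2 or control replicate 3, and for 0 with 12 or 24 libraries in one fit. Col1a1, a chain of type I collagen, was at 425, 377 and 301 CPM against 526, 536 and 543 CPM (-0.55, standard error 0.12, edgeR adjusted p = 0.155, DESeq2 adjusted p = 0.00345). The 3 controls of Col1a1 lay close together.

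Of 21 glycoproteins and proteoglycans, 13 were negative, 8 were positive and 5 were lower without overlap (7.95% of all genes). Tnc, tenascin C, a glycoprotein of remodelling tissue, was at 290, 178 and 128 CPM against 846, 812 and 489 CPM. Spp1, osteopontin, was at 15.9, 4.64 and 4.81 CPM against 21.3, 147 and 16.1 CPM (-2.89, standard error 0.85), where control replicate 2 made most of the difference in means. The small proteoglycan Bgn was at 301, 328 and 298 CPM against 384, 438 and 379 CPM (-0.38), Lum at 90.0, 108 and 118 CPM against 178, 149 and 131 CPM (-0.54), and the matricellular protein Postn had a log2 fold change of -0.77. Tgfb1, the growth factor that drives matrix synthesis, was at 58.9, 43.7 and 34.8 CPM against 62.2, 85.5 and 75.2 CPM (-0.71, standard error 0.19, DESeq2 adjusted p = 0.0129). All 9 tested genes of the TGF-beta and YAP list were negative, 2 of them without overlap (7.95% of all genes), with a median of -0.35. In several of these genes ABT263 replicate 1 was the highest treated mouse, and without it the lists kept negative medians. The median of the glycoprotein and proteoglycan list, -0.17 in the main fit, was -0.052 without ABT263 replicate 3 and -0.055 without control replicate 3.

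Markers of stromal fibroblasts were negative in 8 of 9, 3 of them without overlap beside 7.95% of all genes (median -0.31). These 3, Col1a1, Col1a2 and Lum, are also in the matrix lists, so that they are counted in both. Negative as well were those of smooth muscle in 6 of 7, 3 of them without overlap (median -0.23), and those of the surface epithelium in 7 of 8, with 2 lower without overlap (median -0.24). In each of these lists 3 genes had an unadjusted edgeR p under 0.05 (5.69% of all genes), and 0 with all 24 libraries in one fit (1.99%). Control replicate 2 weighed on both of the latter lists, as without it the median was -0.11 for smooth muscle and -0.11 for the surface epithelium, each with 1 such gene, while without control replicate 1 the median of the surface epithelium was -0.43, with 6 such genes. The summed level of the fibroblast list, led by Col1a2, was 2070, 1892 and 1676 CPM in the treated ovaries and 2409, 2430 and 2337 CPM in the controls. Blood endothelium did not differ in this way, with 6 of 9 genes positive and 0 without overlap. Its median was 0.056, and 0.013 to 0.16 with each mouse left out. The part of these cell types in the matrix values was not tested.

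Immediate early genes, which respond within minutes to growth signals and to the handling of tissue, and heat shock genes had a negative log2 fold change in 9 of 12, 4 of them without overlap (7.95% of all genes) and 7 at an unadjusted edgeR p under 0.05 (5.69%), with a median of -0.74. Without control replicate 2 the median was -0.28 and 3 genes had an unadjusted p under 0.05, as did 3 without ABT263 replicate 2. Jun was at 97.2, 85.7 and 56.8 CPM against 148, 138 and 114 CPM (-0.75), Junb at 31.6, 20.3 and 26.3 CPM against 36.4, 73.3 and 48.0 CPM (-1.02), and Atf3 at 4.19, 5.11 and 2.94 CPM against 7.89, 10.3 and 8.45 CPM (-1.13, standard error 0.24). Fos overlapped (-0.51). The heat shock genes Hspa1a and Hspa1b, near-identical copies, were at 0.15 and 0.16 on the log2 scale. The summed level of the list, led by Egr1, was 435, 370 and 485 CPM in the treated ovaries and 512, 888 and 521 CPM in the controls, and its part in other differences was not tested.

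Of the adipocyte genes, Plin1, which coats lipid droplets and is also found in steroid-making cells, was at 23.5, 18.1 and 13.5 CPM against 41.1, 46.7 and 31.9 CPM (-1.12, standard error 0.20), while Adipoq, Lep and Cidec did not pass the filter. The platelet genes Gp1bb, Gp9, Treml1 and Tubb1 were at or under 3 counts in all 6 libraries, and the remaining platelet genes tested overlapped.

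The same treatment was compared with control at 9 months, 3 months after the end of treatment, to see whether the differences at 6 months were found there. At 9 months, edgeR called 0 of 17065 genes at an adjusted p under 0.05 (0%), and 978 had an unadjusted p under 0.05 (5.73%). The difference between the effects, 9 months minus 6 months, was tested as an interaction over the 12 libraries. It passed in 0 of 18202 genes with edgeR (0%), with a smallest adjusted p of 0.112, while 1335 genes had an unadjusted p under 0.05 (7.33%), 613 with a larger value at 9 months (3.37%) and 722 with a smaller one (3.97%), and DESeq2 called 97 of 18916 (0.513%). Of the 1373 genes that were lower at 6 months without overlap, 57 (4.15%) were lower and 77 (5.61%) higher without overlap at 9 months, beside 4.9% and 5.89% of all 17277 genes. Of the 1291 higher genes, 84 (6.51%) were higher and 55 (4.26%) lower at 9 months. Each of these shares lay close to that of all genes.

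The medians of several lists that were negative at 6 months were positive at 9 months, among them those of macrophages and of the matrix. The median log2 fold change of the macrophage list was -0.29 at 6 months and 0.53 at 9 months, and 8 of its 12 genes had an unadjusted interaction p under 0.05 with edgeR (7.33% of all genes). For the lipid-laden list the medians were -0.80 and 0.23, with 7 of 10 such genes. Its mean log2 levels overlapped at 9 months. Relative to the 6-month controls they were 0.15, 0.49 and -0.20 in the treated mice and -0.35, 0.0087 and -0.030 in the controls of 9 months. The medians were -0.25 and 0.13 for the SASP list, with 6 of 20 such genes. In the mean log2 levels of the SASP and macrophage lists, every treated mouse of 9 months was above every 9-month control. Relative to the 6-month controls, SASP levels were 0.34, 0.098 and 0.10 in the treated mice and 0.063, -0.25 and -0.22 in the controls of 9 months. Macrophage levels were 0.075, 0.28 and 0.22 against -0.23, -0.20 and -0.43. The medians were -0.22 and 0.32 for collagens and crosslinkers (5 of 17) and -0.43 and 0.11 for proteases and inhibitors (5 of 16). For glycoproteins and proteoglycans they were -0.17 and 0.18 (5 of 21), and for stromal fibroblasts -0.31 and 0.28 (3 of 9). At 9 months the treated and control mice overlapped in the mean log2 level of these 4 lists, and ABT263 replicate 1 stood highest. For collagens the levels relative to the 6-month controls were 0.47, -0.03 and -0.01 in the treated mice and 0.03, -0.18 and -0.43 in the controls of 9 months. Lyz2 was at 425, 352 and 435 CPM in the ABT263-treated ovaries of 9 months and 271, 266 and 238 CPM in the 9-month controls, so that treated mice were above the controls at 9 months and below them at 6 months (difference of the log2 effects 1.62, edgeR adjusted p = 0.112, DESeq2 adjusted p = 1.05e-07). Lgals3 was at 114, 122 and 103 CPM against 84.6, 65.7 and 60.4 CPM at 9 months (difference 1.87, edgeR adjusted p = 0.112). Mmp12 overlapped at 9 months, at 14.1, 52.3 and 17.6 CPM against 18.9, 36.0 and 29.5 CPM. The median of the oocyte list was 0.14 at 9 months beside 0.53 at 6 months, and 1 of 22 genes had an unadjusted interaction p under 0.05 (7.33% of all genes), so that a difference between the ages was not shown for this list. Stc1 was at 85.0, 87.0 and 128 CPM against 55.3, 181 and 253 CPM at 9 months (difference -3.32, edgeR adjusted p = 0.291). Sterol genes had a median of 0.26 at 6 months and -1.20 at 9 months, with 12 of 23 at an unadjusted interaction p under 0.05. The groups overlapped at 9 months, with mean log2 levels of -0.39, -0.58 and 0.85 in the treated mice and -0.18, 1.79 and 1.67 in the controls, so that control replicates 2 and 3 stood above the other mice.

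**Figure D4:**
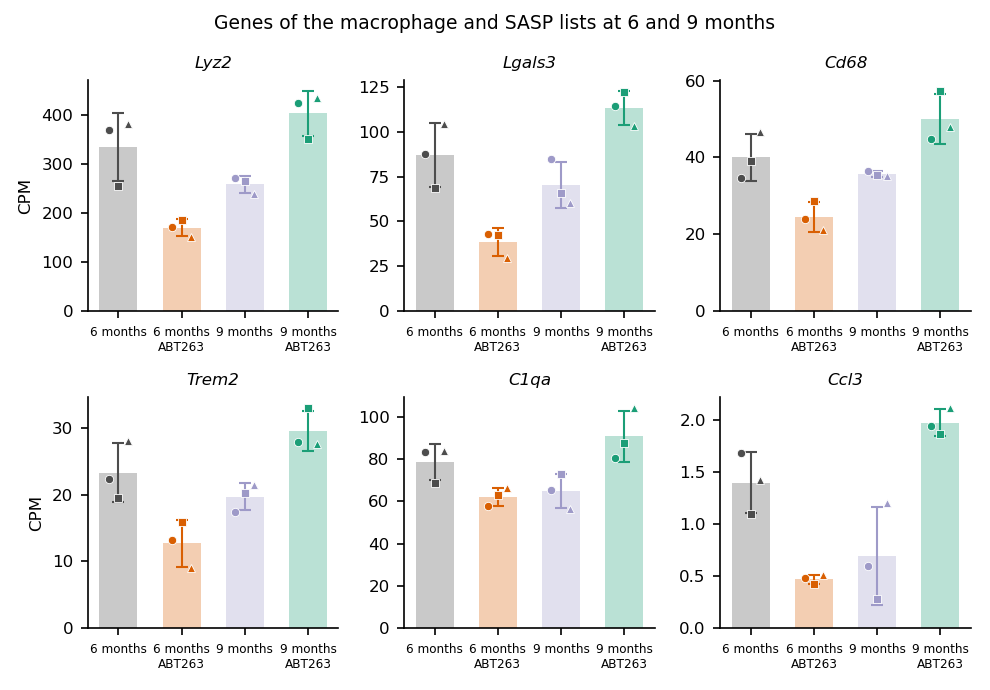
Levels in CPM (vertical) of 6 genes in control mice and ABT263-treated mice, collected at either 6 or 9 months. Each point is a mouse, with circle, square and triangle for replicates 1, 2 and 3, bars are means of 3 mice and error bars the SD. In each gene all treated mice lay below the controls at 6 months and above them at 9 months.

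The 3-month ovaries, from the age at which dosing began, give a further set of levels, and since the 6-month controls enter both comparisons the values are only set side by side. Mean log2 levels of the oocyte list relative to the 6-month controls were 0.57, 0.61 and 0.42 in the ABT263-treated ovaries of 6 months, 0.80, 0.79 and 0.48 at 3 months, and -0.52, -1.23 and -0.13 in the 9-month controls. Gdf9 was at 101, 103 and 79.0 CPM at 3 months, beside 84.4, 92.7 and 77.2 CPM in the treated and 55.6, 57.0 and 53.5 CPM in the control ovaries of 6 months. The lipid-laden macrophage list was at -0.73, -0.64 and -1.11 in the treated ovaries and -1.18, -0.37 and -0.99 at 3 months. In the mitosis list, the treated ovaries were at 0.54, 0.54 and 0.11 and those of 3 months at 0.70, 0.30 and 0.45. Matrix proteases and inhibitors were at -0.25, -0.70 and -0.81 in the treated ovaries and -0.78, 0.00 and -0.48 at 3 months, and the SASP list at -0.30, -0.46 and -0.46 and -0.55, 0.08 and -0.43. In the lipid-laden macrophage, protease and SASP lists, replicate 2 of the 3-month mice stood above the other two.

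**Figure D5:**
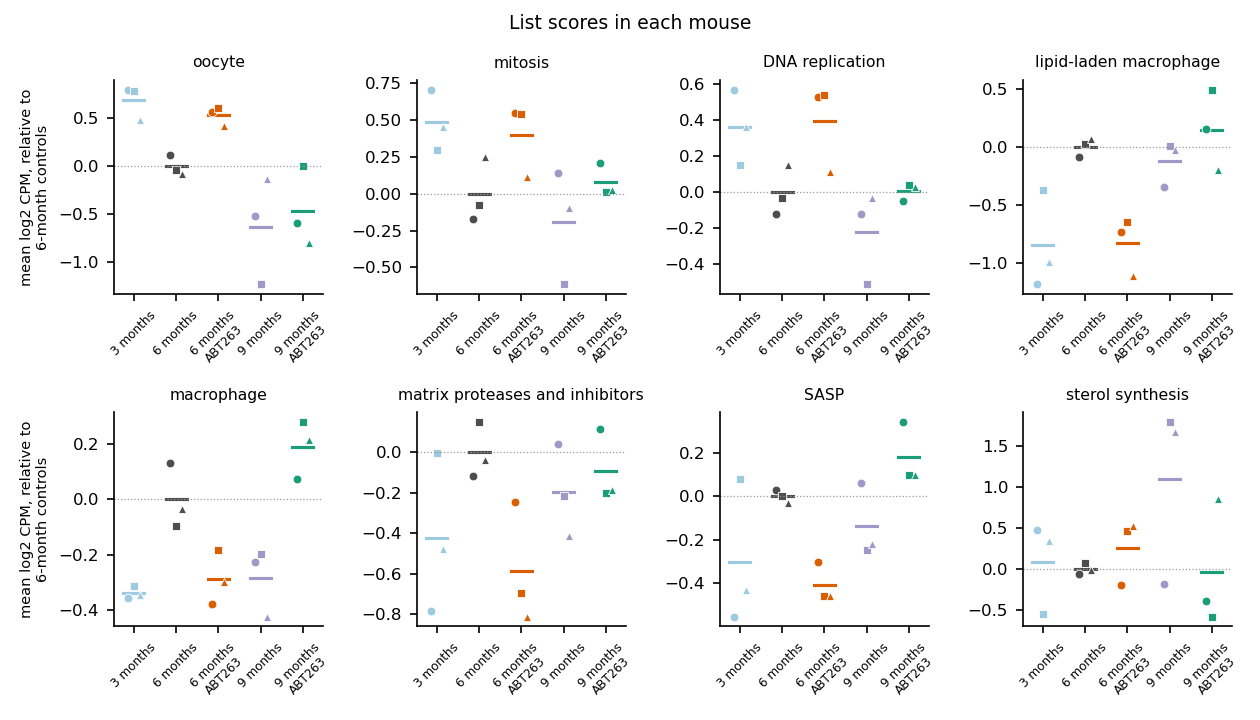
Mean log2 CPM of 8 gene lists, relative to the mean of the 6-month controls (vertical), in each mouse of 5 groups (horizontal). Circle, square and triangle are replicates 1, 2 and 3 and the horizontal line is the group mean. In the oocyte list, the 3 treated mice of 6 months (0.42 to 0.61) lie above the 6-month controls (-0.08 to 0.12).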

How the data were processed

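Read counts of 6 whole-ovary mRNA libraries were taken from the table the authors deposited, which holds whole-number counts per Ensembl gene, without normalization. The submitters' processing notes name STAR and the mm10 build. The counting program and whether it used strand are not given in the sources used here, so antisense and overlapping genes cannot be told apart. Groups were taken from the sample labels, with 3 mice each.

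Genes were tested with edgeR 4.0.16 (R 4.3.3, filterByExpr filter, TMM normalization, quasi-likelihood F test, Benjamini-Hochberg adjustment over 17277 genes). The standard error is the log2 fold change divided by the square root of F. CPM values were normalized over all 24 libraries. List scores average log2 CPM (prior count 2) over the members tested. DESeq2 1.42.0 was an alternative, as were RLE normalization, other filters, a replicate block, 12 or 24 libraries in one fit, and leaving out each mouse. Python 3.11.15 was used for tables and motifs.

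Gene lists were written from general knowledge, except the SASP list, whose genes apart from Ccl8 are named in the study, and lists and members were chosen with earlier results of these data known. Genes named are the 12 with the smallest p in each direction among those without overlap and with a mean of at least 5 CPM, all SASP, senescence and BCL-2 family genes, the 3 members with the smallest p and the most abundant member of each other list, and genes the study measured by other means. Gene symbols and coordinates are from GENCODE M21 on GRCm38. Members of lists named outside this rule were chosen after their values were seen. Counting error alone sets the 3-count floor, and p-values measure the spread between the mice sequenced.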

Additional observations from a re-analysis of the deposited data

Results flagged for a closer look

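For 6 of the genes scanned, the ABT263 effect had opposite directions at the 2 ages. Every treated mouse was below every control at 6 months and above every control at 9 months. The scan covered a set of genes named in the text and not all genes tested. The difference of the effects is given from the interaction fits of edgeR and DESeq2. The 6 genes were chosen for this pattern, so that their p-values are a description. Of all 1373 genes that were lower without overlap at 6 months, 77 (5.61%) were higher without overlap at 9 months, close to the 5.89% of all genes tested. The log2 effect at 9 months minus that at 6 months was 3.04 for Ccl3 (-1.56 at 6 months and 1.48 at 9 months, edgeR adjusted p = 0.291, DESeq2 adjusted p = 0.0112). It was 1.62 for Lyz2 (-0.99 and 0.64, edgeR adjusted p = 0.112, DESeq2 adjusted p = 1.05e-07) and 1.87 for Lgals3 (-1.19 and 0.68, edgeR adjusted p = 0.112, DESeq2 adjusted p = 5.56e-07). For Cd68 the difference was 1.20 (-0.71 and 0.49, DESeq2 adjusted p = 0.00094), for Trem2 1.46 (-0.88 and 0.58, DESeq2 adjusted p = 0.0033) and for C1qa 0.815 (-0.34 and 0.48, DESeq2 adjusted p = 0.029), each with an edgeR adjusted p of 0.291. C1qc, named above but not among the genes scanned, had the same pattern (-0.46 and 0.50). Its difference was 0.957 (edgeR adjusted p = 0.29, DESeq2 adjusted p = 0.0239). None of these differences passed an adjusted p under 0.05 in edgeR, in which 0 of 18202 genes did. Groups of 3 mice are too small for a test of single outlying mice.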

How the results depend on the processing

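The number of genes with an adjusted p under 0.05 at 6 months, 0 in edgeR, was 0 with RLE normalization, with at least 10 counts in every library, and with 12 or 24 libraries in one fit. It was 365 with DESeq2 (126 higher, 239 lower), 871 without a filter on low counts (389 higher, 482 lower), 42 at an adjusted p under 0.10 and 8 with the replicate block, and it ranged from 0 to 210 with each mouse left out, the highest without ABT263 replicate 1. For the difference between the ages, also 0 in edgeR, it was 97 with DESeq2, 204 without a filter, 0 with the replicate block, and 0 to 31 with each mouse left out, the highest without control replicate 1 of 9 months. The causes were not tested. The labels do not say whether replicate numbers pair the mice. Same-numbered mice deviated with correlations of 0.07, -0.04 and -0.14 (n = 3 pairs, each across genes, which are not independent). With so few pairs, these values cannot decide whether the mice were paired. Of 1231 alternative values for the 95 genes of the text with alternatives, 10 had the opposite sign, in 3 genes. This count covers those 95 genes only. Il1b, 0.16 on the log2 scale, was -0.21 with the replicate block, ranged from -1.66 to 1.01 with each mouse left out, and was negative without ABT263 replicate 3, control replicate 1 (-0.025) or control replicate 3 (-0.24). With each mouse left out, Bcl2 ranged from -0.26 to 0.0050 (without ABT263 replicate 3). Bcl2l2 was 0.00013 with 24 libraries, ranged from -0.092 to 0.046 with each mouse left out, and was above 0 without ABT263 replicate 1 or 2 (0.010) or control replicate 1 (0.0026) or 3 (0.0067). Without a filter 73 of the 95 genes passed an adjusted p under 0.05, with DESeq2 61, and without ABT263 replicate 1 34. Of 494 alternative medians for 38 lists, 20 moved by more than the spread between replicates, in 12 lists. With 12 or 24 libraries in one fit, the count of members at an unadjusted p under 0.05 fell for the oocyte list from 18 to 4 and 0, for mitosis from 13 to 5 and 1, for the lipid-laden macrophage list from 9 to 6 and 3 and for the SASP list from 8 to 6 and 2. Genes below 0.148 to 0.180 CPM, the level of 3 counts, could not be read as expressed.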

Other observations

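Further genes with an edgeR adjusted p under 0.10 were singled out after their values were seen. Gpx3, a secreted glutathione peroxidase, was at 870, 486 and 810 CPM in the ABT263-treated ovaries and 1662, 1918 and 1477 CPM in the controls (log2 fold change -1.23, standard error 0.21, edgeR adjusted p = 0.0961), and Onecut2, a transcription factor, at 11.8, 5.21 and 2.74 CPM against 73.5, 68.9 and 25.2 CPM (-3.10). Anxa1, which limits leukocyte entry, was at 66.1, 53.9 and 44.4 CPM against 94.3, 134 and 110 CPM (-1.05), the galectin Lgals1 at 152, 125 and 138 CPM against 208, 199 and 228 CPM (-0.62), and the desaturase Fads2 at 121, 128 and 123 CPM against 213, 244 and 173 CPM (-0.76). Treated and control ovaries did not overlap in any of these 5 genes.

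Ighg3, an immunoglobulin heavy chain gene, was at 0.0599, 0.369 and 0.253 CPM against 4.29, 5.55 and 28.6 CPM (-5.75, standard error 0.94), with control replicate 3 the highest, while the plasma cell gene Jchain was highest in control replicate 2. Gbp2b, a guanylate-binding protein of the interferon response, did not pass the filter of edgeR. It was at 0.120, 24.4 and 20.3 CPM in the treated ovaries and 0.345, 0.149 and 0.405 CPM in the controls (DESeq2 log2 fold change 5.64, adjusted p = 0.0176). Control ovaries of 3 months had 16.5, 0 and 0.153 CPM. The 3 controls of 6 months were all low, while 1 treated mouse was low and 1 control mouse of 3 months was high. At 9 months, Gbp2b was at 0.541, 30.4 and 0 CPM in the controls and 0.824, 0.789 and 30.4 CPM in the treated mice.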
